A study of Mus musculus with 2 samples.

Results

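The Myc and Max network is a family of transcription factors that bind DNA as pairs. The members described here were chosen by gene name: the Myc paralogs Myc, Mycn and Mycl, their shared partner Max, the antagonists Mga, Mnt, Mxi1, Mxd3 and Mxd4, and the Max-like partner Mlx. All 10 had a row in the gene tables, out of 43346 genes, and 51 rows in the transcript tables. Total RNA was sequenced from ES-E14, a mouse embryonic stem cell line from a male embryo of strain 129/Ola, with no treatment named in the labels. There was 1 group of 2 libraries, labelled biological replicates 1 and 2, and both cite the same biological sample, which means that their spread may only be technical. With 1 group and 1 library on each side of any difference, no test between conditions or between libraries was possible, and no p-value is given.

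Myc proteins bind the letters CACGTG and related sites only when paired with Max, and in this form they raise transcription of genes for growth, ribosome production and metabolism. The Mxd proteins, Mxi1 and Mnt take the same partner and the same sites but bring the Sin3 co-repressor with its histone deacetylases. Mga also pairs with Max, carries a second DNA-binding domain of the T-box type, and belongs to a repressive Polycomb complex, PRC1.6, that silences germ cell genes in mouse embryonic stem cells. Mlx pairs with the nutrient-responsive factors Mlxip and Mlxipl and can also pair with Mnt and Mxd4. In mouse embryonic stem cells Myc and Mycn are known to support self-renewal and to stand in for each other in part.

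The 3 Myc paralogs share short conserved stretches of coding sequence. The 60 bases that were most alike in frame across them are shown here because they mark the paralogs as 1 family and because they lie in Myc box I, the segment through which the ubiquitin ligase subunit Fbxw7 recognises Myc for destruction. Capitals mark the 41 of 60 bases that were identical in all 3. The stretches cover codons 44 to 63 of Mycn and of Myc, counted from the ATG, and codons 24 to 43 of Mycl (mm10; chr12:12940205-12940264, minus strand; chr15:61987651-61987710, plus strand; chr4:122996592-122996651, plus strand).
Mycn-201: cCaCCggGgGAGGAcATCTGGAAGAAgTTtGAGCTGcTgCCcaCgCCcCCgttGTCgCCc
Myc-205: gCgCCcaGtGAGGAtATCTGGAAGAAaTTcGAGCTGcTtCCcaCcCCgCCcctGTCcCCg
Mycl-201: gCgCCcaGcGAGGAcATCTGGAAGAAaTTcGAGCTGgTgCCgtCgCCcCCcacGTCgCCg
The deposited posterior SD of the gene count was 0 for all 10 members in both libraries, so the authors' estimate shared no reads between the paralogs or with any other gene.

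All 10 genes were at 1 TPM or more in both libraries. TPM is the length-corrected share of a gene in all transcripts of a library. The same limit was passed by 24.8% of all genes and by 46.3% of protein-coding genes. A limit of 5 TPM was passed by Mga, Mycn and Mlx, 3 of 10, against 24.4% of protein-coding genes. The median of the members was 3.47 TPM, below the median of 5.75 TPM over the 11436 genes tested between the libraries, those whose mean was at least 1 TPM. The members' expected counts, the authors' estimates of reads per gene, ran from 253 to 12060. They summed to 18241 and 20565 of the libraries' 43163300 and 45573512 expected counts, in the order replicate 1 and replicate 2 that is kept throughout.

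Among the Myc paralogs, Mycn was the highest in both libraries. Mycn (ENSMUSG00000037169; chr12:12936093-12941914, minus strand, mm10), first known from neuroblastoma, stood at 21.05 and 17.6 TPM, or 19.3 ± 2.44 TPM (SD, n = 2). Myc (ENSMUSG00000022346; chr15:61985391-61990374, plus strand), the cellular form of the first Myc oncogene, stood at 2.79 and 4.8 TPM, or 3.80 ± 1.42 TPM. Mycl (ENSMUSG00000028654; chr4:122995652-123002485, plus strand), first known from lung cancer, stood at 1.31 and 1.67 TPM, or 1.49 ± 0.255 TPM. The order Mycn, Myc, Mycl was the same in both libraries and the ranges of the 3 genes did not overlap. Mycn was 7.54- and 3.67-fold above Myc and 16.1- and 10.5-fold above Mycl. The larger fold over Myc in replicate 1 reflects both a higher Mycn value and a lower Myc value there. Mycn thus made up 83.7% and 73.1% of the summed TPM of the paralogs, Myc 11.1% and 19.9%, and Mycl 5.21% and 6.94%. Among the 21474 protein-coding genes Mycn ranked 1504 and 2189, and Mycl 9550 and 9472.

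Max (ENSMUSG00000059436; chr12:76937269-76962201, minus strand), without which the Myc proteins do not bind DNA, stood at 4.36 and 6.88 TPM, or 5.62 ± 1.78 TPM. Mlx (ENSMUSG00000017801; chr11:101087277-101092207, plus strand) stood at 6.13 and 11.09 TPM, or 8.61 ± 3.51 TPM. Both partners were higher in replicate 2. Mlx was 1.41- and 1.61-fold above Max within the libraries, but the ranges of the 2 genes over the libraries overlapped. Mycn was 4.83- and 2.56-fold above Max.

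Mga was the highest antagonist and the highest of all 10 genes. Mga (ENSMUSG00000033943; chr2:119897228-119969581, plus strand) stood at 33.23 and 33.68 TPM, or 33.5 ± 0.318 TPM. Its expected counts were 10345 and 12060, the most of any member, and it ranked 883 and 1110 among protein-coding genes. The other 4 antagonists all lay under 4 TPM. Mxd3 (ENSMUSG00000021485; chr13:55325168-55329823, minus strand), an Mxd protein known from dividing cells, stood at 3.57 and 2.71 TPM, or 3.14 ± 0.608 TPM. Mnt (ENSMUSG00000000282; chr11:74830920-74845725, plus strand), a broadly expressed repressor, stood at 1.99 and 2.4 TPM, or 2.20 ± 0.290 TPM. The ranges of the TPM values of Mxd3 and Mnt did not overlap, though the authors' interval bounds of the 2 genes did in replicate 2. Mxd4 (ENSMUSG00000037235; chr5:34173883-34187720, minus strand), known from differentiating cells, stood at 1.32 and 2.84 TPM, or 2.08 ± 1.07 TPM. Mxi1 (ENSMUSG00000025025; chr19:53310518-53375810, plus strand), also called Mad2, stood at 1.97 and 1.9 TPM, or 1.94 ± 0.0495 TPM. The range of Mxd4 overlapped those of Mnt and Mxi1, while Mnt lay just above Mxi1 in both libraries. Mga made up 79.0% and 77.4% of the summed TPM of the antagonists.

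By mean TPM the order over the network was Mga, Mycn, Mlx, Max, Myc, Mxd3, Mnt, Mxd4, Mxi1 and Mycl. By the ranges of the TPM values, neighbours stood apart at 4 of the 9 steps: Mga from Mycn, Mycn from Mlx, Mxd3 from Mnt and Mxi1 from Mycl. The last 2 of these separations did not hold by the authors' interval bounds, which overlapped in replicate 2. There the bounds were 2.43 to 3.15 for Mxd3 and 2.22 to 2.89 for Mnt. They were 1.75 to 2.04 for Mxi1 and 1.62 to 2.18 for Mycl. At the other 5 steps the ranges of the neighbours overlapped. Mlx was above Max and Max above Myc within each library, while Myc and Mxd3 changed places. Mxd1, the member of the Mxd family that gave it its name, was outside the 10 and stood at 0.41 and 0.70 TPM, under the limit in both libraries. With TPM rescaled to protein-coding genes, Mxd1 passed the same limit in both.

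**Figure D1:**
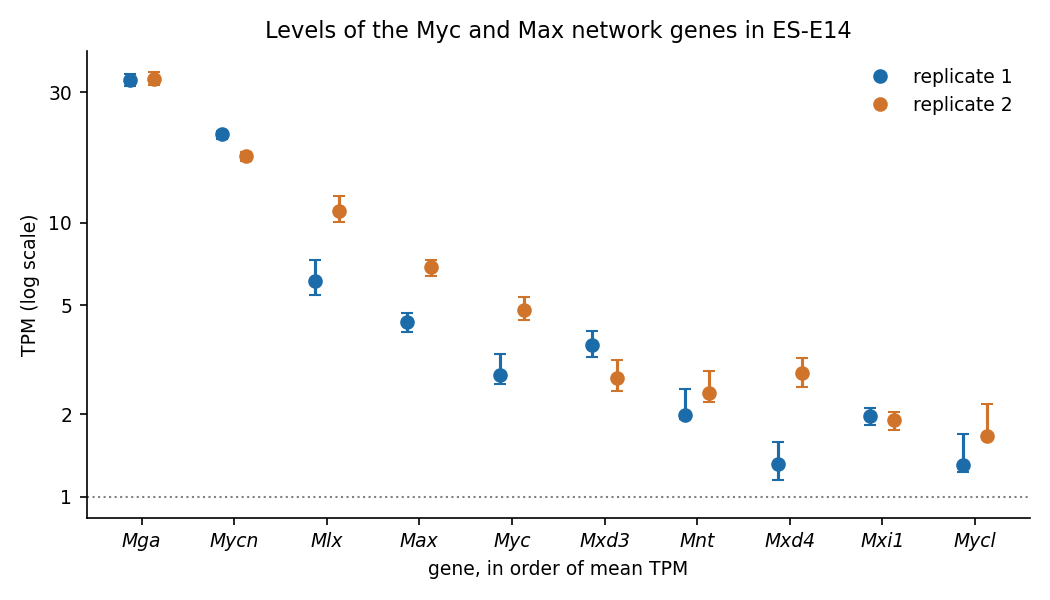
TPM of the 10 genes on a log axis, in order of mean; points are the deposited TPM of each library, bars the authors' interval bounds and the dotted line the limit of 1 TPM. Mga and Mycn lie above the other 8 genes in both libraries, and Mxd4 has the widest gap between its points, 1.32 and 2.84 TPM.

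The Myc paralogs were then compared with their antagonists within each library. The paralogs summed to 25.15 and 24.07 TPM and the antagonists to 42.08 and 43.53 TPM. The antagonists were 1.67- and 1.81-fold higher, a log2 ratio of paralogs to antagonists of -0.80 ± 0.08 (SD, n = 2). The balance rested on Mga. Without it the other antagonists summed to 8.85 and 9.85 TPM, and the paralogs were 2.84- and 2.44-fold higher, so the direction turned. Mnt, Mxd3, Mxd4 and Mxi1 together were thus below Mycn alone in both libraries.

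The type of Mga transcript that was counted also turned the direction. The annotation gives Mga 15 transcripts, of which 5 are protein-coding. The coding transcripts took 10.38 and 12.85 TPM, 31.2% and 38.1% of the gene's TPM, but 83.5% and 86.1% of its expected counts. The 10 noncoding models took 22.84 and 20.84 TPM. TPM divides by length, and these models are short: Mga-208, the leading transcript by TPM, is a processed transcript of 739 bases in the table, while the coding Mga-201 has 11982 bases. Mga-208 took 8.99 and 7.14 TPM from 407 and 306 expected counts, and Mga-201 took 4.82 and 5.27 TPM from 4428 and 4610. The other forms that reached 10% were the coding Mga-204 (7.04% and 11.2%) and Mga-215 (9.69% and 11.3%) and the processed transcript Mga-209 (12.44% and 9.71%). The annotated coding sequence of Mga-215, 6886 bases, is not a whole number of codons. Mga-215 is counted among the coding transcripts, at 3.22 and 3.81 TPM. Where models overlap, the division of reads between them is the authors' estimate. With protein-coding transcripts only, a comparison added after the noncoding models had been seen, the paralogs summed to 23.63 and 23.32 TPM and the antagonists to 18.51 and 21.8 TPM. The paralogs were then 1.28- and 1.07-fold higher, a log2 ratio of 0.22 ± 0.18. Mga remained the highest antagonist on this scale, with 56.1% and 58.9% of the coding sum, but stood below Mycn, which was 1.89- and 1.31-fold above it.

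**Figure D2:**
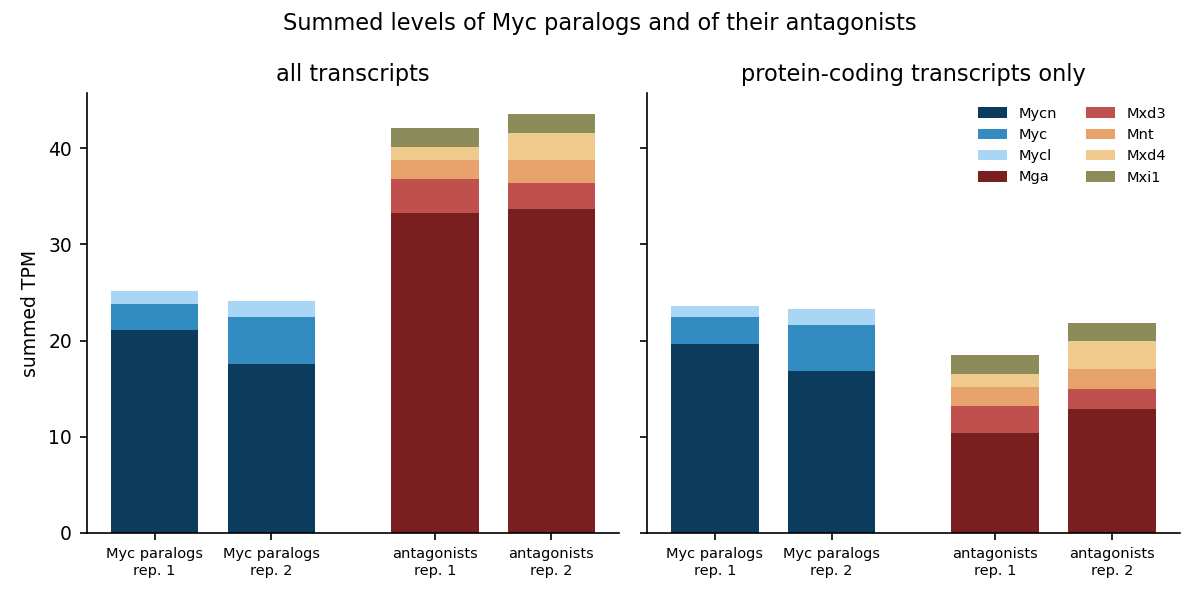
Summed TPM of the 3 Myc paralogs and the 5 antagonists in each library, stacked by gene, from all transcripts (left) and from protein-coding transcripts only (right). The antagonist bars exceed 42 TPM on the left and reach 18.51 and 21.8 TPM on the right, below the paralog bars, as the Mga segment shrinks.

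Max RNA was far below the summed RNA of the proteins that pair with it. The paralogs and antagonists together came to 67.23 and 67.6 TPM, 15.4- and 9.83-fold above Max, a log2 ratio of Max to partners of -3.62 ± 0.46 (SD, n = 2). From protein-coding transcripts alone the partners came to 42.14 and 45.12 TPM, and Max was 9.67- and 6.55-fold below them. Mnt and Mxd4 can also pair with Mlx, so the sum is not a demand on Max alone. These are RNA levels, and no protein was measured.

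Transcript forms were described next, as the deposited percent of each gene's TPM. For 9 of 10 genes both libraries had the same leading transcript, against 85.8% of 7889 genes with several transcripts and a mean of at least 1 TPM. Myc was the exception. Its Myc-204 led in replicate 1, with 27.24% and 13.66%. Myc-201 and Myc-205, which have the same letters and differ only in the start codon that is annotated, were each given 15.55% and 29.45%. Together they took 31.1% and 58.9% and led in both libraries, so with identical transcripts summed, an addition made after seeing this, all 10 genes kept their leading form. Myc-202 was at 21.25% and then listed at 0, Myc-207 at 13.42% and then at 0, and Myc-206 was listed at 0 and then at 16.7%. The Myc gene had 405 and 665 expected counts over 8 transcripts, all of them coding. The tables therefore did not fix which Myc form was made.

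The start codons of Myc are shown because they set apart the short and the long Myc protein, and because Myc-201 and Myc-205 cannot be told apart by reads. Myc-201 begins at a CTG, a known non-standard start of Myc, and Myc-205 at the ATG that follows 15 codons later. Capitals mark both starts (mm10; chr15:61985922-61987524, plus strand, spliced across an intron).
Myc-201: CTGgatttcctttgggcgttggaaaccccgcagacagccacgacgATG

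For Mycn and Mycl the main forms did not differ in coding sequence. Mycn-201 took 65.96% and 83.4% and Mycn-202 27.33% and 12.36%, and both encode the same 462 codons. Their sum was steadier, at 93.29% and 95.76%. Mycl-201 took 46.65% and 53.96% and Mycl-202 46.58% and 46.04%, again with the same coding letters, 368 codons long.

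Of the 2 forms of Max that were quantified, the short one led. The later annotation used for the coding sequences also lists the coding Max-205 and Max-206, which have no values here. Max-201, of 151 codons, took 79.76% and 78.4%, and Max-202, of 160 codons, 20.24% and 21.6%. The 2 shares differed by less than 2 percentage points between the libraries, while the Max gene itself differed more. Both forms carry the paired-helix region that binds Myc. The long form holds 1 further exon of 27 bases just before the DNA-contacting basic region, shown because it is the difference between the known short and long Max proteins. Capitals mark the exon and lower case the 12 coding bases on each side (exon at chr12:76961263-76961289, minus strand, mm10).
Max-202: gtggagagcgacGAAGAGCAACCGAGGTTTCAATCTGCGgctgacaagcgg

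Mxi1 was made mainly as the form with the shorter amino end. Mxi1-202, of 192 codons, took 86.49% and 85.08%. Mxi1-201, of 295 codons, took 10.44% and 14.92%, and Mxi1-203, of 228 codons, 3.07% and then 0. The whole coding sequence of Mxi1-202 is the end of both longer forms. In the mouse, the form with 36 more codons at the front is the one known to bind Sin3 and to repress strongly, while the shorter form lacks that segment. The segment is shown because it sets Mxi1-203 apart from Mxi1-202. Mxi1-201 has 103 more codons than Mxi1-202 at its front, and Sin3 binding was not measured for any form. Capitals mark the start of Mxi1-203 and the start of Mxi1-202 (chr19:53329648-53331388, plus strand, spliced, mm10).
Mxi1-203: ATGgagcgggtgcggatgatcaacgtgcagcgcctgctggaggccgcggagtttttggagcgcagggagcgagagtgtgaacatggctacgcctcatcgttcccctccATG
The counts behind the forms were small. Mxi1-202 had 641 and 578 expected counts and Mxi1-201 80.0 and 105.

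The Mxd genes and Mnt each had 1 leading coding form. Mxd3-201 took 79.14% and 77.9%, the rest being Mxd3-203, a retained intron, at 20.86% and 22.1%. Mnt-201 took 100% and 87.66%, and the retained intron Mnt-203 0 and 12.34%. The share of Mnt-203 in replicate 2 rested on 13.6 expected counts, so it is imprecise. Mxd4-201 took 89.49% and 81.64%, and Mxd4-202 10.51% and 18.36%. Mxd4-202 lacks an exon of 30 bases, which is shown because it encodes part of the basic region that contacts DNA. Capitals mark the exon (chr5:34184314-34184343, minus strand, mm10).
Mxd4-201: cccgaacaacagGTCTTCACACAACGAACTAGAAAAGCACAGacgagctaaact
Mxd4-202 rested on 10.9 and 38.6 expected counts, so its share is imprecise.

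Mlx output was divided among several forms. Mlx-202, of 244 codons, took 33.63% and 34.81%. Mlx-201, of 298 codons, took 23.37% and 20.54%, and Mlx-203, of 214 codons, 8.84% and 12.2%. These are the known middle, long and short Mlx proteins, which share the end that pairs with Mlxip and Mlxipl and differ towards the front. The processed transcript Mlx-206 took 19.17% and 21.42%, and the 127-codon Mlx-207 13.28% and 11.03%. The exon that separates Mlx-202 from Mlx-203 is shown in capitals (chr11:101088236-101088325, plus strand, mm10).
Mlx-202: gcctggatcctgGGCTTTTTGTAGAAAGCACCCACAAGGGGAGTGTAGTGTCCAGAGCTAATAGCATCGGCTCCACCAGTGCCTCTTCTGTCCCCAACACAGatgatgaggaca

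**Figure D3:**
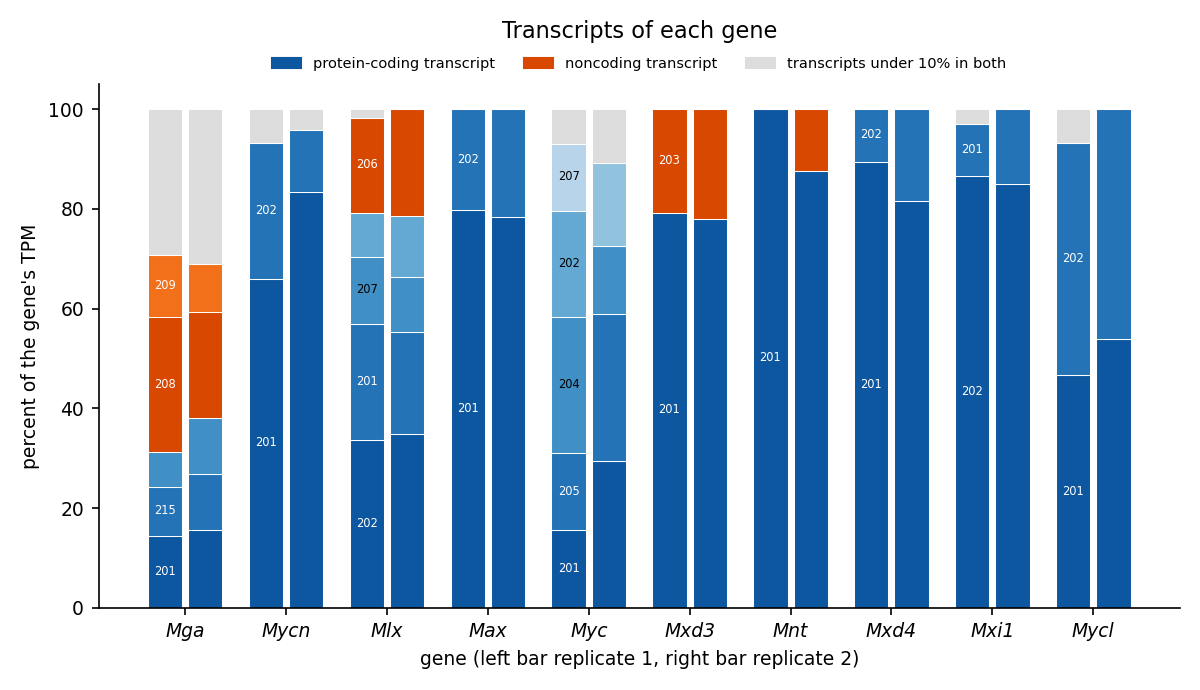
Percent of each gene's TPM by transcript, with replicate 1 on the left and replicate 2 on the right of each pair; blue segments are protein-coding, orange ones noncoding, grey ones under 10% in both libraries, and numbers name the transcript. Max, Mxi1, Mxd3 and Mlx have like bars in both libraries, Myc does not, and Mga is the only gene led by a noncoding model.

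The libraries were compared to see how far the network's levels held. By TPM, 7 genes were higher in replicate 2 and 3 lower. The median log2 difference, replicate 2 over replicate 1, was 0.31, close to the median of 0.29 over all genes tested, of which 71.4% were higher in replicate 2. The TPM scale itself was therefore shifted between the libraries. Protein-coding genes outside the mitochondrial genome held only part of each library's TPM. Rescaled to those genes alone, Mga, at 33.23 and 33.68 TPM, stood at 178 and 147. The rescaling raised all members by the same factor within a library, and by a different factor in each library. Levels and the 1 TPM limit therefore depend on the scale chosen. Mxd4 was 2.15-fold higher in replicate 2, the only member 2-fold apart, against 9.29% of genes in either direction. With TMM factors 0 members were 2-fold apart, against 7.35% of genes, and likewise 0 with DESeq2 size factors (background 7.14%) and with TPM rescaled to protein-coding genes (7.52%). With the deposited posterior mean TPM it was again 1 (8.39%).

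With TMM factors, which brought the median of all genes to 0.01, 5 members were higher in replicate 2 and 5 lower. The log2 difference was 0.71 for Mxd4, 0.57 for Mlx, 0.49 for Myc, 0.36 for Max and 0.14 for Mycl. It was -0.69 for Mxd3, -0.52 for Mycn, -0.35 for Mxi1, -0.19 for Mnt and -0.01 for Mga. Mycn and Myc thus lay on opposite sides in these libraries under each of the 4 scalings. The 2 members whose direction turned with the scaling were Mnt, which of the 4 was higher in replicate 2 by TPM alone, and Mga, whose difference was 0.02 by TPM and -0.28 after rescaling. The other 8 kept their direction. The coefficient of variation over the 2 libraries ran from 0.951% for Mga to 51.7% for Mxd4, with a median of 18.2% against 20.0% over the genes tested.

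The authors' interval bounds did not overlap between the libraries for 6 of 10 members, namely Mycn, Mlx, Max, Myc, Mxd3 and Mxd4. The same held for 62.8% of genes tested. For Mga, the steady TPM hid a change in the estimated length: its effective length was 4007 and 4835 bases, as the mix of long and short models moved. Mlx, Max, Mxd3, Mxd4 and Mxi1 each overlap another annotated gene, in 4 of the 5 cases on the opposite strand, and whether the authors counted by strand is not stated in the labels or files. For Mxd3 the neighbour is Prelid1, with 3283 and 4258 expected counts against 349 and 253 for Mxd3.

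**Figure D4:**
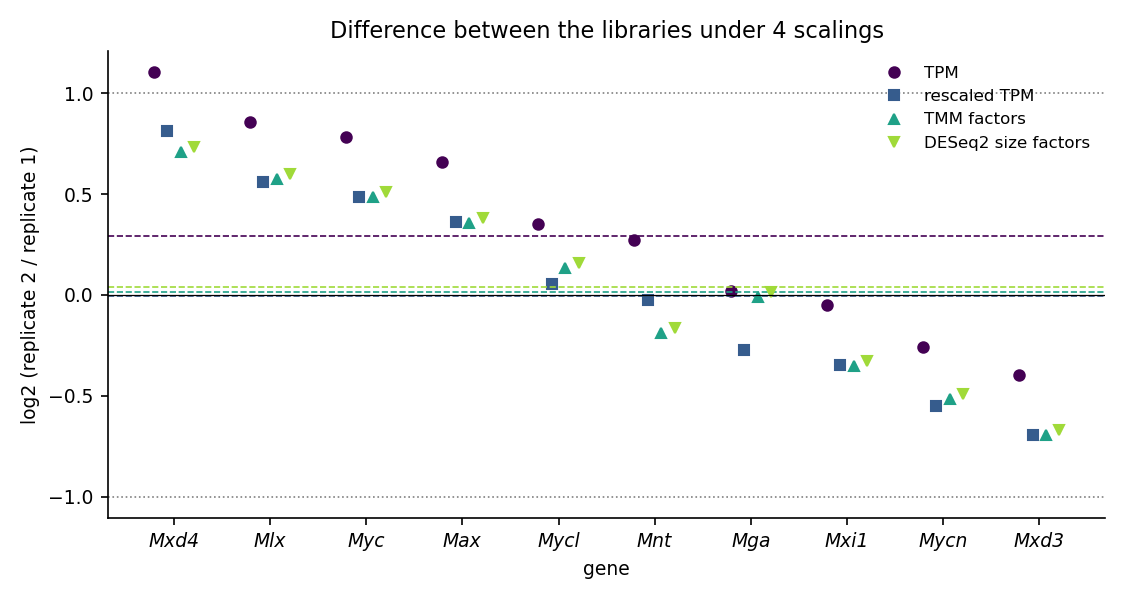
Log2 difference of each gene, replicate 2 over replicate 1, under 4 scalings (symbols); dashed lines are the medians over all genes tested and dotted lines the 2-fold limits. Only the TPM value of Mxd4 passes a limit, and for Mnt and Mga the symbols fall on both sides of 0.

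Markers of the labelled cell type were present in both libraries. All 8 pluripotency markers were above 1 TPM, with Dppa5a at 613.37 and 597.01 TPM, Tdgf1 at 318.39 and 197.95 TPM, Pou5f1 at 162.43 and 201.07 TPM and the lowest, Klf4, at 19.59 and 13.82 TPM. Markers of feeder fibroblasts, cells on which stem cells may be grown, differed between the libraries. Their 8 genes summed to 47.58 and 154.05 TPM, and 4 of the 5 with a mean of at least 1 TPM were at least 2-fold higher in replicate 2, against 7.46% of genes. Acta2, a smooth muscle actin, stood at 33.04 and 100.23 TPM and the collagen gene Col1a1 at 7.21 and 28.84 TPM. The fifth of these, Thy1, went the other way, at 2.27 and 1.62 TPM, while Dcn was at 0.06 and 0.19 TPM and Lum was at 0 in both. The summed level moved the same way as Mxd4, Mlx, Myc, Max and Mycl, and its part in those differences was not tested. Mycn, Mxd3 and Mxi1 went the other way. By TPM, 71.4% of all genes tested were higher in replicate 2. In bulk RNA, more cells of a type and more RNA per cell cannot be told apart.

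Genes that work with the network were read from lists of textbook members. For comparison, 46.3% of protein-coding genes passed 1 TPM in both libraries, and those tested had a median of 5.85 TPM. Mlx had its usual partners at low levels. Mlxip, a sensor of glucose-derived signals, stood at 1.53 and 1.88 TPM, and Mlxipl, its relative known from liver, at 2.06 and 1.35 TPM. Of 5 known Mlx-Mondo targets, 4 were above 1 TPM in both libraries. They were led by the fatty acid synthase gene Fasn at 35.49 and 39.42 TPM, Txnip, an inhibitor of glucose uptake, at 29.59 and 28.92 TPM, and Acaca, of fatty acid synthesis, at 13.08 and 16.59 TPM. The liver pyruvate kinase gene Pklr was at 0.17 and 0.2 TPM.

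The cofactors of both arms were present, at a limit of 1 TPM that 46.3% of protein-coding genes passed in both libraries. All 12 genes of the Myc coactivator list were above 1 TPM, with a median of 14.2 TPM. The list also holds Zbtb17, the gene for Miz1, with which Myc is known to repress genes. Zbtb17 stood at 7.11 and 6.82 TPM. Ruvbl2 led at 41.79 and 45.14 TPM, followed by Actl6a at 35.12 and 39.09 TPM and Ruvbl1 at 22.54 and 34.51 TPM, all parts of chromatin remodelling complexes. All 9 genes of the Sin3 and histone deacetylase co-repressors were above 1 TPM, with a median of 16.5 TPM. Rbbp7, a histone-binding subunit, stood at 31.03 and 68.25 TPM, Ncor1 at 39.39 and 41.75 TPM, Sin3b at 23.27 and 41.84 TPM and the lowest, Suds3, at 8.79 and 11.41 TPM. Of these 9, Rbbp7 alone was at least 2-fold higher in replicate 2 by TPM, against 7.46% of all genes tested. With TMM factors 0 were, against 3.15%.

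Of the 12 other subunits of PRC1.6, the complex of Mga and Max, all were above 1 TPM, with a median of 14.4 TPM. That limit was passed by 46.3% of protein-coding genes. The heterochromatin protein genes Cbx3 and Cbx1 stood at 19.03 and 39.7 TPM and at 21.53 and 35.37 TPM, and L3mbtl2, a reader of methylated histones, at 21.52 and 27.5 TPM. Pcgf6, the subunit that defines the complex, was at 4.9 and 7.53 TPM, and the lowest were E2f6, a DNA-binding subunit, at 1.02 and 2.02 TPM and the ubiquitin ligase gene Ring1 at 1.71 and 1.31 TPM. Pcgf6 and E2f6 were named after their values had been seen. By TPM, 2 of the 12 were at least 2-fold higher in replicate 2, against 7.46% of all genes tested. With TMM factors 1 was, against 3.15%. All 10 genes that control Myc protein stability were above 1 TPM. The ubiquitin ligase gene Huwe1 led at 66.13 and 70.69 TPM, followed by the kinase gene Aurka, whose protein shields Mycn from destruction, at 19.0 and 24.23 TPM. The lowest was Gsk3b, a kinase that marks Myc box I for Fbxw7, at 3.07 and 4.79 TPM.

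All 20 textbook targets of Myc were above 1 TPM in both libraries, with a median of 39.0 TPM. The limit was passed by 46.3% of protein-coding genes, and the median of those tested was 5.85 TPM. The list was chosen with earlier results of these data known, and Myc activity was not measured. The ribosome assembly genes Npm1, at 358.42 and 617.61 TPM, and Nop56, at 303.93 and 282.59 TPM, were the highest. Ldha, the lactate dehydrogenase of glycolysis, stood at 157.89 and 142.7 TPM, and the lowest was the cyclin gene Ccnd2 at 1.55 and 1.74 TPM. Of the 20, 0 were 2-fold apart between the libraries by TPM or with TMM factors, where 9.29% and 7.35% of all genes were, so with 20 genes the count is close to the background. Of 4 cell cycle inhibitor genes that Myc is known to repress with Miz1, 3 were above 1 TPM. Cdkn1c stood at 10.28 and 9.5 TPM, Cdkn2b at 2.55 and 7.9 TPM and Cdkn1a at 2.96 and 7.17 TPM, while Cdkn2c was at 0.14 and 0.28 TPM. Cdkn2b and Cdkn1a were at least 2-fold higher in replicate 2 by TPM and with TMM factors, against 7.46% and 3.15% of genes. The summed fibroblast markers were also higher in that library, though Thy1 was not, and their part in it was not tested.

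**Figure D5:**
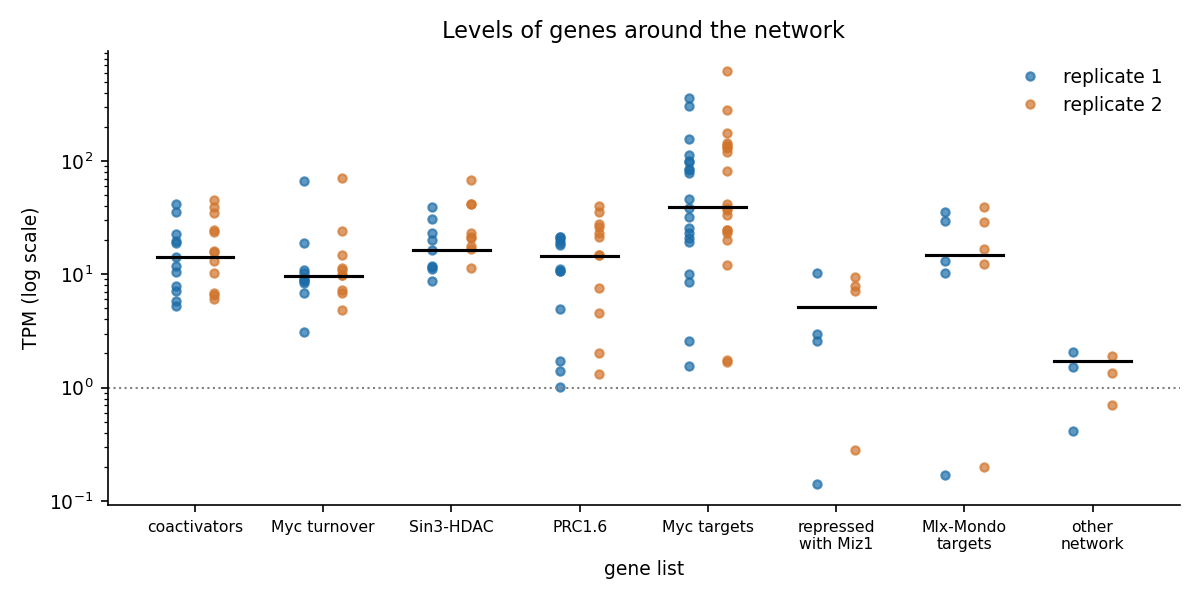
TPM of the genes of 8 lists on a log axis, with 1 point per gene and library, black lines at the list medians of mean TPM and a dotted line at 1 TPM. The Myc targets have the highest median, 39.0 TPM, and the other network genes, Mxd1, Mlxip and Mlxipl, the lowest.

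The letters CACGTG, the preferred site of Max pairs, were then searched on both strands in promoter windows of RefSeq genes (GRCm38.p6; 250 bases before to 50 after each start; the motif reads the same on both strands). They were found in 7.15% of 32851 windows and for 8.09% of 27025 genes. Of the 9 members with a window, Max, Mlx, Mnt and Mxd4 held 1 site each, so 4 of 9 did. Of 14 textbook targets with a window, 5 did. These windows are shown because the sites lie at the promoters of network genes themselves. Each line gives the motif in capitals with 12 bases on each side, and the sites begin 3, 40, 123 and 219 bases before the start of Max, Mlx, Mnt and Mxd4 (chr12:76962234-76962263, minus strand; chr11:101087238-101087267, plus strand; chr11:74830789-74830818, plus strand; chr5:34187912-34187941, minus strand).
Max: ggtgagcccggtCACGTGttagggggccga
Mlx: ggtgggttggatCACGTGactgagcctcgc
Mnt: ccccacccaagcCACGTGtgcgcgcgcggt
Mxd4: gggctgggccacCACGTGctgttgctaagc
The distances are counted from RefSeq starts. For Max that start lies upstream of the gene end given above, no GENCODE transcript of Max held the bases just after it, and the site spans it. The matches are letters in a reference window, and no binding was measured. Of these 4 genes, Max, Mlx and Mxd4 were higher in replicate 2 under each of the 4 scalings, and Mnt was not. The same direction was seen for Mycl, whose window held no site, and for Myc, which had no window. Of all genes tested, 71.4% were higher in replicate 2 by TPM and 51.3% with TMM factors. The share was 53.3% with DESeq2 size factors and 49.7% with rescaled TPM. Whether the direction goes with a site was not tested.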

How the data were processed

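Total RNA-seq of 2 ES-E14 libraries was used, in 1 group by the labels. Per the deposited text file, reads were mapped to mm10 with the M4 annotation, while alignment and quantification software is not stated there or in the labels. Per gene and transcript, the authors deposited expected counts, TPM, FPKM and, by transcript, the percent of the gene's TPM. Posterior mean TPM and the bounds of an interval of unstated level were deposited too, and serve as signal values of the authors. Gene and transcript names, coordinates and coding sequence came from GENCODE M21 on GRCm38, which named 42462 of 43346 genes. Only 28 of 51 member transcripts kept their version, so coding sequences of the others may differ from those quantified. Promoter windows came from RefSeq (GRCm38.p6).

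Log2 differences are replicate 2 over replicate 1 of TPM, with no pseudocount, over 11436 genes with a mean of at least 1 TPM. Expected counts were rounded for TMM factors (edgeR 4.0.16) and size factors (DESeq2 1.42.0) in R 4.3.3, used for scaling and no test. All else ran in Python 3.11.15 with pandas 2.3.3, numpy 2.4.6 and matplotlib 3.10.9. Only the 2-fold calls were tested on simulated data, with Poisson counts and no further spread between libraries. Depth was 43163300 and 45573512 expected counts, and counting error alone gives a half-width on log2 differences of 0.04 to 0.23 (95%, Poisson). The members and gene lists were chosen with earlier results of these data known. Every member, every transcript at 10% or more of its gene in a library, and the 3 highest and the lowest of each list were to be named, of which 2 list genes are not reported here.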

Additional observations from a re-analysis of the deposited data

How the results depend on the processing

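All 10 genes also passed 0.5 TPM, posterior mean TPM, FPKM and rescaled TPM limits in both libraries, and 3 passed 5 TPM. The log2 ratio of paralogs to antagonists was -0.80 and turned to 1.40 without Mga and to 0.22 with protein-coding transcripts only. It was -1.61 from expected counts, which favour long genes such as Mga, and lay from -0.85 to -0.74 with either library alone. Posterior means, lower bounds, Mxd1 added or the highest genes alone moved it by less than 1 SD. The ratio of Max to its partners was -3.62, became -4.55 from expected counts and -2.99 with coding transcripts only, and lay from -3.95 to -3.30 with either library alone. The count of members 2-fold apart fell from 1 to 0 with TMM factors, DESeq2 size factors, rescaled TPM, a mean of 5 TPM or more, or a pseudocount of 1. The count of genes with the same leading transcript was 8 to 10 under its alternatives. The limit of 5 TPM lowered the counts of 6 of 13 lists by more than 1.5 times and those of 3 others by 1.5 times or less. Rescaled TPM raised the count of other network genes from 2 to 3, with Mxd1 added, and that of feeder markers from 5 to 6. No paired analysis was possible because there is 1 group. Depth limits the shares of transcripts with few counts.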
